A study of Dendrobium officinale with 6 samples.

Results

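Among the leaf genes of the orchid Dendrobium officinale that were well expressed in control plants, 161 were strongly lower after methyl jasmonate (MeJA). They were chosen by a rule on transcript levels: a control mean (3 libraries) no lower than 30 TPM, and a highest MeJA value of at most 0.5 of the lowest control value, with no rescaling. TPM is a length-corrected measure of transcript abundance that has the same sum in every library. These genes were 161 of the 60597 assembled genes listed, and 161 of the 5771 genes (2.79%) that reached the control level. The values that chose them are the MeJA and control values themselves, so the fall of these genes is a description here and carries no test.

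Libraries were made from total RNA of leaves of 6-month-old plants, with 3 control and 3 MeJA libraries. Plants of the MeJA group were sprayed with MeJA at 100 µM, dissolved in ethanol, and their leaves were taken after 24 h. Control plants were seedlings of the same age that received ethanol alone, and the labels give no separate sampling time for them, so a difference in sampling time and MeJA cannot be told apart. Both groups therefore share the ethanol, and neither was left unsprayed. Whether each library had its own plants is not stated, so any p-value measures only the spread between these libraries, which may be technical. In bulk leaf RNA, fewer cells of a type and less RNA per cell cannot be told apart.

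Jasmonates are plant hormones of wounding and defence. In Arabidopsis thaliana, the active form, jasmonoyl-isoleucine, binds the receptor COI1, which leads to the breakdown of the JAZ repressor proteins and frees transcription factors such as MYC2. Leaves exposed to jasmonates are known for higher transcript levels of defence and specialised metabolism genes and for lower levels of many genes of photosynthesis and growth. Which of these the 161 genes belong to is not known here, because the files give assembly identifiers without gene names, functions or sequences. The leaf label could not be checked against marker genes for the same reason. Roles of the genes are therefore not given, and apart from 2 identifiers they are called by their rank in control level, from 1 (highest) to 161.

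The repressed genes covered a wide range of control levels, and most kept a measurable level under MeJA. Control means ran from 30.3 to 4616 TPM with a median of 65.3 TPM, and MeJA means ran from 0.41 to 456 TPM with a median of 15.8 TPM. The median gene of the group kept 28.4% of its control mean, with quartiles of 18.0% and 33.7%. In 124 genes the MeJA mean was still at least 10 TPM, and in 45 it was still at least 30 TPM. By contrast, all 3 MeJA libraries were below 10 TPM in 18 genes, below 5 TPM in 6 and below 1 TPM in 1. A single gene, rank 84, was listed at 0 in a MeJA library.

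**Figure D1:**
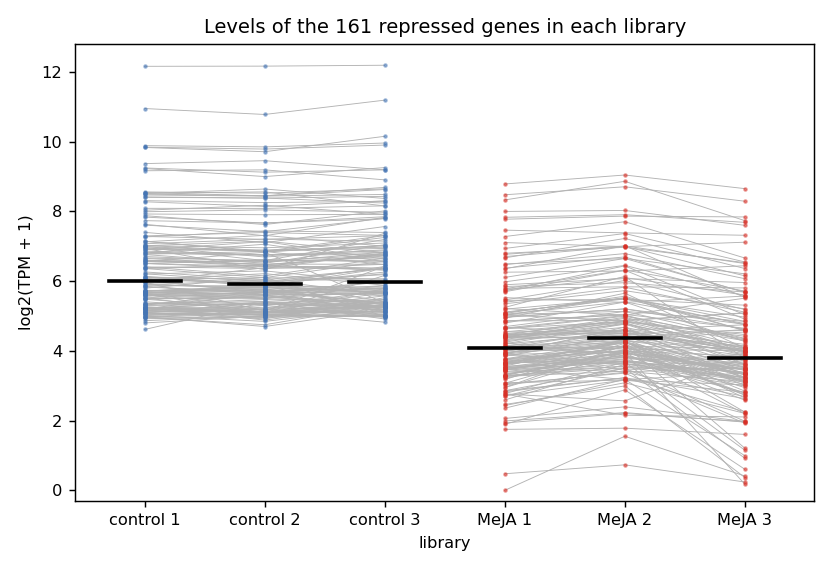
Level of each of the 161 repressed genes, as log2(TPM + 1), in the 3 control and 3 MeJA libraries; each point is a gene, grey lines join the libraries of a group, and black bars are medians. The medians were 59.5 to 63.7 TPM in the controls and 13.0 to 19.8 TPM in the MeJA libraries.

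As a ratio of group means, control over MeJA, the fall was 2 to 3 times in 42 genes, 3 to 4 times in 56, 4 to 8 times in 44, 8 to 16 times in 15 and more than 16 times in 4. On the log2(TPM + 1) scale the median difference, MeJA minus control, was -1.81, with a range of -5.36 to -1.13. Over all 55498 genes tested the median difference was -0.17, and over the 5771 genes at 30 TPM or more in controls it was -0.25. The size of the fall showed little relation to the control level. Spearman's rho between control mean and fold was 0.02 across the 161 genes, which are not independent and were selected on both values.

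All 161 genes were among those called lower by limma at an adjusted p under 0.05, where 12.6% of all tested genes and 41.7% of genes at 30 TPM or more in controls were called lower. The rule used the same contrast, so nothing is read from this count. Without the 30 TPM minimum, 3.58% of all tested genes (mean of at least 1 TPM) had a highest MeJA value of at most 0.5 of the lowest control. The mirror rule, a lowest MeJA value of at least 2 times the highest control, was met by 173 of the same 5771 genes. Large falls and large rises were thus found in 2.79% and 3.00% of the well expressed genes as deposited. This balance depended on the scaling: after median-ratio size factors the fall rule was met by 116 genes and the rise rule by 208. The 30 TPM minimum was then applied to the scaled controls, and 5272 genes reached it, so these counts have another base.

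**Figure D2:**
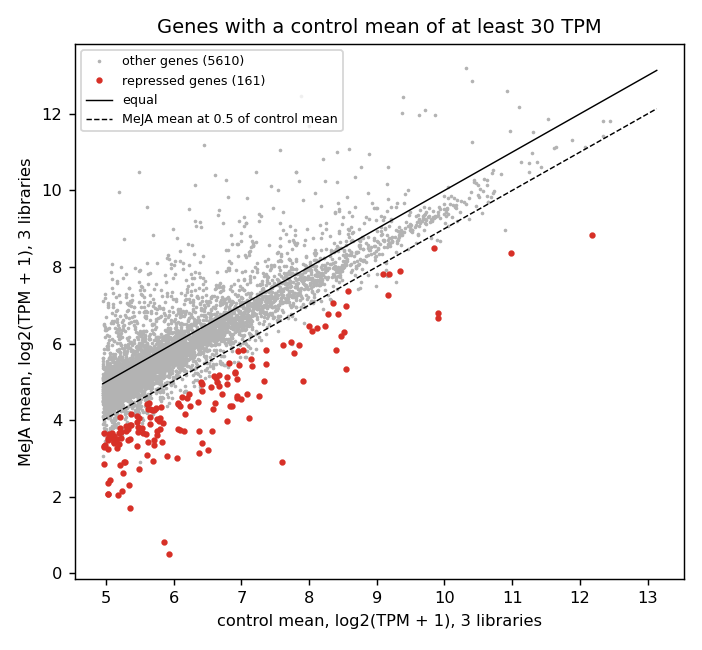
Mean level under MeJA against mean level in controls, both as log2(TPM + 1) over 3 libraries, for the 5771 genes at 30 TPM or more in controls. The 161 repressed genes (red) lie under the dashed line that marks 0.5 of the control mean, and 238 other genes (grey) lie on or under that line without meeting the rule in every library.

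Repressed genes were found at every level of expression. They were 62 of 2557 genes (2.42%) at 30 to 50 TPM, 45 of 1751 (2.57%) at 50 to 100 TPM, and 35 of 1035 (3.38%) at 100 to 300 TPM. At 300 to 1000 TPM they were 17 of 351 (4.84%), and at 1000 TPM or more they were 2 of 77 (2.60%). The median fall was 3.41 times in the lowest of these classes, 3.96, 3.66 and 3.15 times in the next ones, and 8.10 times for the pair at the top.

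TRINITY_DN22982_c0_g4 was the most abundant of the repressed genes in controls. Its level was 4577, 4594 and 4676 TPM in control libraries 1, 2 and 3, and 440.5, 526.5 and 401.5 TPM in MeJA libraries 1, 2 and 3. The controls were nearly level with one another, and the MeJA libraries lay far below them with little spread of their own. The means were 4616 ± 53 and 456 ± 64 TPM (SD, n = 3 each), a 10.1-fold fall and a log2 difference of -3.35 ± 0.13 (SE).

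The gene of rank 2 had 1977, 1757 and 2336 TPM in the controls and 320, 465 and 212 TPM under MeJA. Its fall was 6.09 times, with a wider spread in both groups than at rank 1. Ranks 3 and 4 started from nearly the same control mean, at 962 ± 157 and 954 ± 38 TPM, and reached 110 ± 35 and 100.0 ± 28.4 TPM (SD, n = 3 each). Both fell about as far as rank 1, by 8.74 and 9.54 times. Other abundant genes of the group fell much less. Rank 5 had 916, 883 and 956 TPM in the controls and 355, 417 and 312 TPM under MeJA, a 2.54-fold fall. Rank 10 had 376, 367 and 400 TPM in the controls and 175, 166 and 158 TPM under MeJA, a 2.29-fold fall, close to the smallest that the rule admits.

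Together, the repressed genes took 2.62% ± 0.08 of all TPM in the controls and 0.60% ± 0.12 under MeJA (SD, n = 3 each). In control libraries 1, 2 and 3 the share was 2.62%, 2.53% and 2.70%, and in MeJA libraries 1, 2 and 3 it was 0.59%, 0.72% and 0.48%. The controls were close to each other, whereas MeJA library 2 kept 1.5 times the share of MeJA library 3. Much of the sum came from few genes: rank 1 alone held 17.6% of the summed control level, and ranks 1 to 10 together held 46.6% of it. Without rank 1 the summed level still fell 3.90 times, against 4.37 times with it. The 173 genes that met the mirror rule held 2.01% ± 0.03 of TPM in controls and 10.8% ± 1.9 under MeJA. Since TPM has a fixed sum, a gain of that size lowers the values of other genes. Median-ratio size factors, which set the typical gene level, were 1.08 to 1.10 in the controls and 0.88 to 1.01 under MeJA. After division by these factors 116 of the 161 genes still met the rule, and all 161 had a negative log2 difference, from -5.23 to -0.93. In 155 of the 161 the difference was at least 1 log2 unit. The other 45 were not all lost at the ratio limit, since scaling also lowered the control means. Rank 151, with a control mean of 31.8 TPM and a 9.99-fold fall as deposited, was lost at the 30 TPM minimum.

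**Figure D3:**
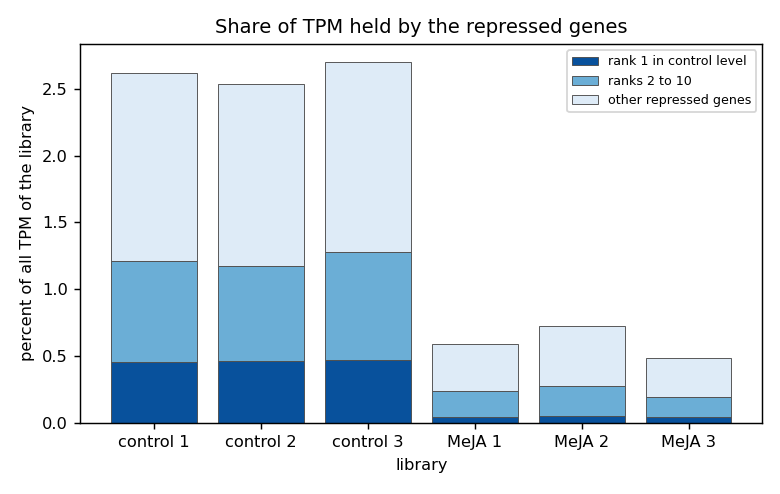
Share of all TPM, in percent, held by the repressed genes in each library, split into rank 1 in control level, ranks 2 to 10 and the other repressed genes. The bars reach 2.53% to 2.70% in the controls and 0.48% to 0.72% in the MeJA libraries.

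A few genes came close to loss of signal. TRINITY_DN10543_c0_g1, rank 82 in control level, had the largest fall. It had 61.6, 34.3 and 84.9 TPM in the controls and 0.39, 0.66 and 0.18 TPM under MeJA. Its controls differed 2.48 times between themselves, yet the lowest of them was far above each MeJA value. The means were 60.3 ± 25.4 and 0.41 ± 0.24 TPM (SD, n = 3 each), a 147-fold ratio and a log2(TPM + 1) difference of -5.36 ± 0.33 (SE). The read depth behind values under 1 TPM is unknown, so the size of this ratio is uncertain.

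Rank 84 had 58.5, 64.5 and 48.2 TPM in the controls, and it was listed at 0 in MeJA library 1 and had 1.93 and 0.33 TPM in MeJA libraries 2 and 3. Rank 28 was the most abundant of the genes with a fall above 16 times. It had 197, 157 and 226 TPM in the controls and 6.24, 10.4 and 2.95 TPM under MeJA, a 29.7-fold fall. Rank 120 had 36.6, 40.5 and 43.4 TPM in the controls and 2.36, 2.44 and 2.04 TPM under MeJA. Its 17.6-fold fall was nearly the same in each MeJA library, unlike that of rank 28.

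The depth of the fall differed between MeJA libraries in a regular way. Relative to the control mean, the median fall over the repressed genes was 3.63 times in MeJA library 1, 2.91 times in library 2 and 4.72 times in library 3. At or under 0.25 of the control mean lay 71 genes in MeJA library 1, 43 in library 2 and 101 in library 3. Library 3 held the lowest MeJA value in 131 of the 161 genes (81.4%), library 2 held the highest in 138 (85.7%), and library 1 held the middle value in 132 (82.0%). The full order, library 3 below library 1 below library 2, was found in 124 genes (77.0%). Which library is lowest is not fixed by the rule, which treats the libraries of a group alike.

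With the values as deposited, the same tendency was seen in the wider set of genes, as a smaller share. Of the 5763 genes at 30 TPM or more in controls without ties, MeJA library 3 was lowest in 3248 (56.4%) and library 2 was highest in 3605 (62.6%). In the 2248 genes at this level that limma called lower but that did not meet the rule, library 3 was lowest in 69.7%. Scaling moved these shares and turned the order in the wider set. After median-ratio size factors, library 3 was lowest in 120 of the 161 repressed genes (74.5%) and in 1619 of the 5771 genes (28.1%). In those 5771 genes library 2 was now lowest in 48.8% and library 3 highest in 55.8%. These shares describe 3 libraries, and genes are not independent, so no test is given. Among the 173 mirror genes, MeJA library 3 was highest in 86 (49.7%) and library 2 lowest in 86 (49.7%), with the values as deposited. Over all genes at 30 TPM or more without ties these shares were 25.9% and 24.6%. Library 3 also held the fewest genes at 1 TPM or more, 45648, against 49105 and 50458 in libraries 1 and 2. The part of this difference in the order was not tested.

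**Figure D4:**
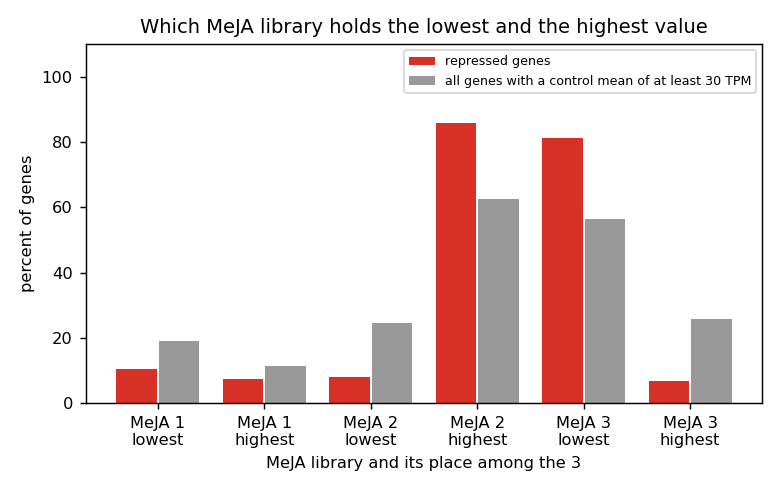
Percent of genes at which each MeJA library held the lowest or the highest of the 3 MeJA values, for the repressed genes (red) and for all genes at 30 TPM or more in controls (grey), without ties. MeJA library 3 was lowest in 81.4% of the repressed genes and 56.4% of all these genes, and library 2 was highest in 85.7% and 62.6%.

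The spread between MeJA libraries was wider in the classes with a deeper fall. The ratio of the highest to the lowest MeJA value had a median of 1.36 in genes that fell 2 to 3 times and 1.62 in those that fell 3 to 4 times. It was 2.09 in those that fell 4 to 8 times and 2.30 in those that fell 8 times or more, without the gene listed at 0. For low values this ratio also takes in more measurement noise, whose size is not known here. Spearman's rho between fold and this ratio was 0.49 across the other 160 genes. Both quantities are computed from the same MeJA values. The rule itself favours such a relation, since a gene with a small fall can only meet the limit in all libraries if its MeJA values lie close together.

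**Figure D5:**
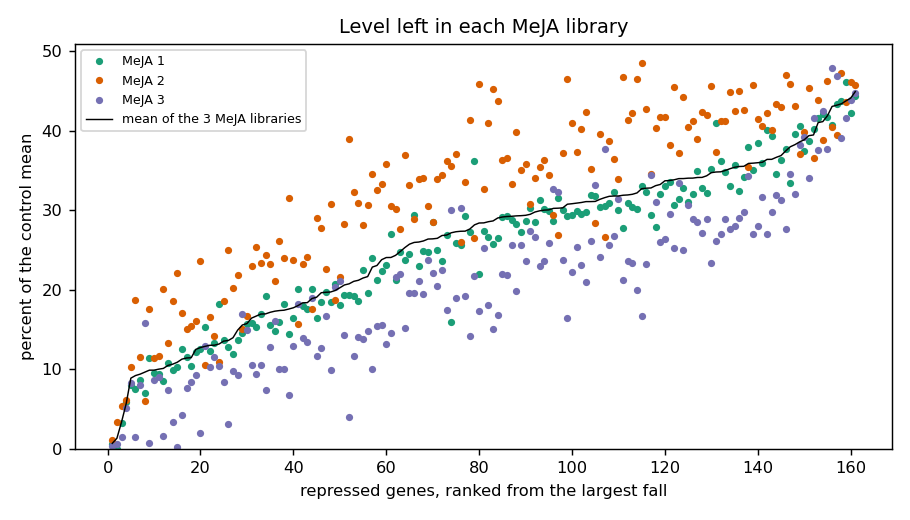
Level in each MeJA library as a percent of the control mean, for the 161 repressed genes ranked from the largest fall; points are single libraries and the line is the mean of the 3. Library 2 (orange) lies mostly above the line and library 3 (purple) mostly below it, and the libraries come together among the genes with the smallest falls.

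In 49 genes the highest and lowest MeJA values differed 2 times or more, counting rank 84 with its value of 0, and 46 of these followed the order library 3 below library 1 below library 2. Their controls stayed close, with a median ratio of 1.15 between highest and lowest. Among the 160 genes without a value of 0, rank 81 was the most uneven, with 64.7, 73.2 and 57.9 TPM in the controls and 6.71, 14.5 and 0.13 TPM under MeJA. Its level was near loss in library 3 while library 2 kept a measurable level. Rank 11 showed the same at a higher level, with 360, 348 and 411 TPM in the controls and 37.0, 69.3 and 12.7 TPM under MeJA. A spread of 5 times or more, which a mean over the MeJA libraries does not show, was found in 9 genes, again with rank 84 counted.

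Other repressed genes had nearly equal MeJA values. In 25 genes the 3 MeJA values lay within 1.2 times of each other, and library 3 was lowest in 6 of these. Their median control mean was 99.3 TPM, and their median fall was 3.05 times. Rank 40 was the most even, with 126, 113 and 129 TPM in the controls and 54.4, 56.2 and 54.9 TPM under MeJA. Just outside that limit, rank 23 was steady in both groups at a deeper fall, with 242, 239 and 240.1 TPM in the controls and 32.0, 34.1 and 27.7 TPM under MeJA, a 7.68-fold ratio. Rank 7 had 606, 557 and 583 TPM in the controls and 218, 232 and 228 TPM under MeJA, so that abundant genes too included even ones.

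The usual order was turned in a small number of genes. MeJA library 3 lay above library 2 in 16 of the 161. It held the highest MeJA value in 6.83% of the 161, against 25.9% of all genes at 30 TPM or more in controls without ties. After median-ratio size factors these shares were 13.7% and 55.8%. Rank 68 had 93.0, 112.6 and 40.5 TPM in the controls and 5.80, 4.92 and 13.0 TPM under MeJA. Control library 3 held the lowest control value here and MeJA library 3, a separate sample, the highest MeJA value, while the groups still did not overlap. This gene had the widest spread among controls, 2.78 times between highest and lowest. In 5 repressed genes the controls differed 2 times or more, and in 90 they lay within 1.2 times. The rule compares with the lowest control and so disfavours genes with scattered controls. Even so, the controls of the repressed genes were not closer together than usual. Their median control SD was 7.70% of the mean, against 5.13% in the other genes at 30 TPM or more. Under MeJA these medians were 24.65% and 8.05%. The rule itself gives the repressed genes low MeJA values, where a relative SD takes in more measurement noise. The part of noise in this difference was not tested.

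The rule was also applied to 5 libraries, and the value in the library left out, which that choice had not used, is described without a test. Leaving out MeJA library 1 or 3 chose 168 and 164 genes, and the left-out value was at most 0.5 of the lowest control in 95.8% and 98.2% of them. Among all genes at 30 TPM or more in controls the same was true of 5.91% and 8.96%. Leaving out MeJA library 2 chose 331 genes, of which 48.6% met the limit in library 2, against 3.24% of all these genes. For each left-out MeJA library, the genes that met the limit were by construction the 161 repressed genes themselves. These shares therefore restate 161 over the number chosen, and nothing about the fall is read from them. In 330 of the 331 genes library 2 was still below every control, as it was in 63.8% of all these genes. Its median level was 46.4% of the control mean in the 331 genes and 87.3% in all these genes. Without MeJA library 2 the rule thus chose 331 genes instead of 161, a larger change than for any other library left out. Leaving out control library 1, 2 or 3 chose 168, 203 and 181 genes, and the left-out control was at least 2 times the highest MeJA value in 97.0%, 79.8% and 86.2%. The same was true of 3.97%, 3.68% and 3.93% of all genes at 30 TPM or more in the 2 controls kept. In the repressed genes library 1 held the middle value in 69.6% of genes among controls and in 82.0% under MeJA. Over all genes at 30 TPM or more these shares were 57.1% and 69.4%, so the left-out readings of library 1 add little. MeJA library 3 was lowest in 81.4% of the repressed genes, so it too mostly met the limit where the other MeJA libraries did. Each left-out MeJA value was also set against the same lowest control that had chosen the genes. How far the order of the libraries set the reading of each MeJA library was not tested.

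Near the limits of the rule the choice was between very similar genes. The member of lowest control mean had 29.3, 30.3 and 31.3 TPM in the controls and 9.48, 10.7 and 6.96 TPM under MeJA. The nearest gene outside had a control mean of 29.8 TPM, with 4.72, 5.29 and 5.07 TPM under MeJA, a deeper fall than that of the member. At the other limit, the last gene inside had a highest MeJA value of 0.4999 of its lowest control, and the first outside had 0.5028. The highest MeJA value was 0.45 to 0.5 of the lowest control in 36 members, and 0.5 to 0.55 of it in 74 genes just outside. A ratio of means of at most 0.5 was met by 399 genes, including the 161. In 231 of the remaining 238 every MeJA library was below every control, as it was in 56.8% of all genes at 30 TPM or more in controls. MeJA library 2 held the highest MeJA value in 209 of the 238.

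Few of the repressed genes shared an assembly component with each other, though the number to be found among other genes of this level is not given here. Trinity, the assembler whose naming the identifiers follow, names genes by a cluster, a component within it and a gene number. The 161 genes came from 159 components, 2 of which held a pair of them, and from 158 clusters, 3 of which held a pair. Whether they belong to the same gene families is not known here. In 37 genes (23.0%) the component held no other gene, as in 24.0% of the 5610 other genes at 30 TPM or more in controls. Where it held others, 104 of 124 repressed genes (83.9%) were the most abundant gene of the component in controls, against 83.7% of those other genes.

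The pairs differ in level, and that both genes of a pair were lower under MeJA follows from the rule. In the first pair, rank 23, described above, fell 7.68 times, while its partner of rank 105 had 51.5, 53.0 and 40.3 TPM in the controls and 8.71, 10.4 and 10.2 TPM under MeJA, a 4.94-fold fall. In the second pair, rank 6 had 661, 700.3 and 584 TPM in the controls and 255, 260 and 193 TPM under MeJA, a 2.75-fold fall. Its partner of rank 156 was the less abundant by far, at 31.6 ± 8.9 and 8.58 ± 3.20 TPM (SD, n = 3 each), a 3.68-fold fall. The log2 differences of this pair were -1.46 ± 0.14 and -1.79 ± 0.31 (SE), and whether they differ was not tested. Genes of 1 component can share reads, and how reads were divided between them is not stated, so the values of a pair are not independent.

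Genes that shared a component with a repressed gene, but did not meet the rule, were mostly low. There were 423 of them, of which 386 passed the filter of a mean of at least 1 TPM and were tested. Limma called 93 of the 386 lower (24.1%) and 31 higher (8.03%), against 12.6% lower and 6.15% higher over all tested genes. The shares are also given by level. Of the 318 partners under 30 TPM in controls, 66 were called lower (20.8%) and 20 higher (6.29%), against 9.09% and 5.59% of the 49409 other tested genes under that level. Of the 68 partners at 30 TPM or more, 27 were called lower (39.7%) and 11 higher (16.2%), against 40.1% and 11.3% of the 5542 genes there that were neither repressed genes nor partners. When limma was fitted without the libraries numbered 1, none of 384 such genes was called (0 calls, with 123 at an unadjusted p under 0.05). The 93 and 31 calls became 45 and 20 without control library 1, and 51 and 20 without MeJA library 1.

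Large falls could stand beside stable or rising genes of the same component. In the component of rank 1, one of the other 4 genes had 198, 205 and 197 TPM in the controls and 256, 245 and 275 TPM under MeJA, and another went from a mean of 28.5 to 92.8 TPM. Rank 14 fell from 352 ± 6 to 72.6 ± 24.8 TPM (SD, n = 3 each), while a gene of its component was nearly unchanged in mean, at 245 and 247 TPM. The widest split was in the component of rank 52, which had 108, 114 and 87.8 TPM in the controls and 28.0, 31.6 and 15.1 TPM under MeJA. Another gene of that component had 20.0, 8.30 and 30.5 TPM in the controls and 333.1, 334.2 and 332.2 TPM under MeJA, a log2 difference of 4.19 (limma adjusted p = 0.00189). These component partners were chosen for description after their values were seen.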

How the data were processed

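The authors deposited 1 value per assembled gene and library, read here as TPM, since every library adds up to about 1000000 and its low values share no common step; the unit is not named in the headers or labels. Assembler, quantification tool and annotation: not given in the sources used here. Because TPM keeps no depth, read depth is unknown, no count model was used and no interval is given.

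The selection rule was applied to the deposited values. As background, limma (version 3.58.1, R 4.3.3) was fitted to log2(TPM + 1) with group as the only term and an intensity trend, for genes whose mean reached 1 TPM, and calls (two-sided) required a Benjamini-Hochberg adjusted p under 0.05. The fit and the rule were tested on simulated data. The members and comparisons were chosen with earlier results of these data known. Identifiers are printed for the member with the highest control mean and the one with the lowest ratio of MeJA to control mean. Alternatives were other scalings, filters, pseudocount, prior, rule limits, the library number as a replicate block, and leaving out each library in turn.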

Additional observations from a re-analysis of the deposited data

How the results depend on the processing

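The setting without the libraries numbered 1 was chosen after seeing the data. The number of repressed genes, 161, was 411 with a control minimum of 10 TPM, 54 with 100 TPM, 28 with a limit of 0.25 and 399 by ratio of means. It was 116 under median-ratio size factors, 157 under quantile normalization and 164 to 331 with 1 library left out, the highest without MeJA library 2. For both scalings the 30 TPM minimum was applied to the scaled values. Genes called lower, 6966, were 3780 under size factors, 4571 without the intensity trend, 3573 with the library number as a replicate block, 2471 to 8281 with 1 library left out (lowest without control library 1) and 20 with libraries 2 and 3 alone; the cause was not tested. Of the 161, the block called 159, leaving out 1 library 150 to 161, and libraries 2 and 3 alone 15. Between libraries of the same number, deviations from the group means had correlations of 0.02, -0.01 and -0.01, so the numbers are not taken to pair the samples. The difference in TPM share, -2.02 percentage points, was -2.15 under quantile normalization. Component partners called lower, 93, were 45 to 104 with 1 library left out and 0 with libraries 2 and 3 alone; those called higher, 31, were 20 to 37 and 0. MeJA library 3 was lowest in 3249 genes at 30 TPM or more, but in 1619 under size factors. Across the alternatives the median log2 difference of the 161 genes was -1.96 to -1.60. Unknown depth limits values near 0.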
